A study of Homo sapiens with 12 samples.

Results

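Doxorubicin (DOX) is an anthracycline, a quinone-bearing drug whose side-chain carbonyl can be reduced to the alcohol doxorubicinol and whose quinone ring can itself be reduced. The genes described here are 10 reductases known for these reactions, taken as the rows of the count table with the symbols CBR1, CBR3, AKR1A1, AKR1B1, AKR1B10, AKR1C1, AKR1C2, AKR1C3, NQO1 and POR, out of 63677 genes in all. For AKR1C1, AKR1C2, AKR1C3 and POR, 1 other row carried the same symbol. The row with the most counts was used, and the counts of the other row are not given here. RNA was sequenced from Huh7 cells, a human hepatocellular carcinoma line, in 4 groups of 3 samples. The groups were untreated cells in medium only, cells given graphene oxide (GO) at 400 µg/mL, cells given GO carrying the ginseng saponin Rg3 (GO–Rg3) at 400 µg/mL, and cells given GO–Rg3 loaded with DOX (GO–Rg3–DOX) at 100 µg/mL, each for 6 h. Every treated group thus received GO, the DOX-loaded carrier was given at a lower dose than the other 2, and cells given free DOX were not analysed here. All samples were of 1 cell line, and nothing says whether replicates came from separate cultures, so the p-values measure the spread between these samples.

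CBR1 and CBR3 are NADPH-dependent carbonyl reductases of the short-chain dehydrogenase family, and CBR1 is a main source of doxorubicinol in human liver. The aldo-keto reductases (AKR) use NADPH for the same kind of step. AKR1A1 reduces aldehydes broadly, AKR1B1 is aldose reductase, AKR1B10 reduces retinal and other aldehydes, and AKR1C1 to AKR1C3 also reduce steroid ketones and prostaglandins. NQO1 reduces quinones to hydroquinones with a hydride, which avoids the semiquinone radical. POR, which feeds electrons from NADPH to the cytochromes P450, can give DOX a single electron and so form that radical. Many of these genes are known targets of the transcription factor NRF2, which acts at antioxidant response elements (ARE), and NQO1 is also a target of the aryl hydrocarbon receptor (AHR), which acts at xenobiotic response elements (XRE).

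The 3 AKR1C genes lie side by side on chromosome 10 (GRCh37), AKR1C1 at 5005445 to 5025475 on the plus strand, AKR1C2 at 5029967 to 5060223 on the minus strand and AKR1C3 at 5077546 to 5149878 on the plus strand. Their coding sequences are near copies, so that their counts depend on how reads with several possible origins were handled. AKR1C1 and AKR1C2 differed at 19 of 969 coding bases (98.0% identity), and AKR1C3 differed from AKR1C1 at 83 and from AKR1C2 at 87. Coding bases 73 to 162 are shown because they hold many of the bases by which reads can be told apart. Capitals mark positions at which the 3 genes are not all alike, and relative to AKR1C1 the stretch differs at 10 positions in AKR1C2 and at 11 in AKR1C3.
AKR1C1: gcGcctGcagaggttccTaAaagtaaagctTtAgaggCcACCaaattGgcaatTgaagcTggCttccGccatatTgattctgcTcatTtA
AKR1C2: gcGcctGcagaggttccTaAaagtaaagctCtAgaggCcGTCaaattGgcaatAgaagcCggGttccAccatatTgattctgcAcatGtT
AKR1C3: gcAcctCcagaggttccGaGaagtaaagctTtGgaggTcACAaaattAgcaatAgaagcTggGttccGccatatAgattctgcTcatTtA

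Over whole transcripts the problem was smaller. Of all windows of 1 read length in the canonical transcript, 7.84% were identical to another gene's for AKR1C1, 17.03% for AKR1C2 and 2.03% for AKR1C3. For CBR1, 21.8% of windows occurred in an overlapping gene model (ENSG00000289001) that has no row in the count table. The other 6 genes had no shared window. CBR1, CBR3, NQO1 and POR overlap a gene on the opposite strand, and whether the counting used the strand was not stated. The partners of CBR1 (CBR1-AS1, 381 shared bases, at most 3 counts in any sample) and NQO1 (ENSG00000261602, 575 shared bases, 0 counts throughout) hold few reads, and TMEM120A shares 25 exonic bases with POR. Few reads in a partner do not show that the counts of CBR1 and NQO1 were unaffected by the overlap. CBR3 shares 710 bases with CBR3-AS1, which had 3 to 18 counts a sample.

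The upstream sequence was read because NRF2 and AHR regulate several of these genes. The 1000 bases before the start of the canonical transcript were searched on both strands of GRCh37 for an ARE core (TGACNNNGC) and an XRE core (GCGTG), neither of which lies within the other. An ARE core was present for NQO1, CBR1, AKR1B10 and POR and in 32.5% of all 19207 promoters. The matches of NQO1, the most abundant member, and of CBR1 are printed with 12 bases on either side and the core in capitals.
NQO1, 455 bases upstream, chr16:69760898-69760930: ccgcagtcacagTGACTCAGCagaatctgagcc
CBR1, 522 bases upstream, chr21:37441788-37441820: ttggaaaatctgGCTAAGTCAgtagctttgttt
CBR1, 159 bases upstream, chr21:37442151-37442183: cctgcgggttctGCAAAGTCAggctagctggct

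The NQO1 match is on the strand of the gene and both CBR1 matches are on the opposite strand. An XRE core was found for NQO1 (2 matches), POR (6), AKR1B10 (2), AKR1A1, AKR1B1, CBR1 and CBR3 (1 each), and in 73.0% of all promoters. Neither core was found within the 1000 bases before AKR1C1, AKR1C2 or AKR1C3. The matches are descriptions of sequence and not evidence of binding.

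Counts per sample totalled 27802871 to 38877420 and were scaled by the TMM method to a common library size (CPM). All 8 liver markers that were examined, among them ALB and AFP, were abundant in every sample. Of genes of other cells, the endothelial gene PECAM1 had no count and the leukocyte gene PTPRC did not exceed 0.064 CPM. The endothelial genes VWF and CDH5 did not exceed 0.165 and 0.536 CPM. The fibroblast genes COL1A2 (1.63 to 4.82 CPM) and COL3A1 (0.587 to 2.59 CPM) were detected in every sample. The share of counts from mitochondrially encoded genes was 5.31% to 6.28% in untreated cells, 12.1% to 24.1% with GO, 6.89% to 7.42% with GO–Rg3 and 12.8% to 19.4% with GO–Rg3–DOX. GO replicate 1, at 24.1%, stood apart, and values without it are given where it matters.

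In untreated cells the 10 genes together had 851 ± 20.9 CPM (SD, n = 3), of which NQO1 made up 59.1%, POR 17.2% and AKR1A1 15.9%. Per kilobase of canonical transcript, the level was 199 ± 3.98 CPM for NQO1, 95.9 ± 3.12 for AKR1A1, 59.9 ± 4.93 for POR and 14.5 ± 0.407 for CBR1. AKR1B1 (4.96 ± 0.436) and AKR1C1 (4.68 ± 0.0608) followed on the same scale, and their samples overlapped. Below them were AKR1C2 (3.30 ± 0.259), AKR1C3 (0.883 ± 0.233), AKR1B10 (0.230 ± 0.0415) and CBR3 (0.0459 ± 0.0188). No other neighbours in this order overlapped. Scaled by all exonic bases, AKR1C1 (3.50) was above AKR1B1 (1.85) and the other ranks were kept. The quinone reductase NQO1 was thus the leading transcript, while CBR1 led CBR3 by far.

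**Figure D1:**
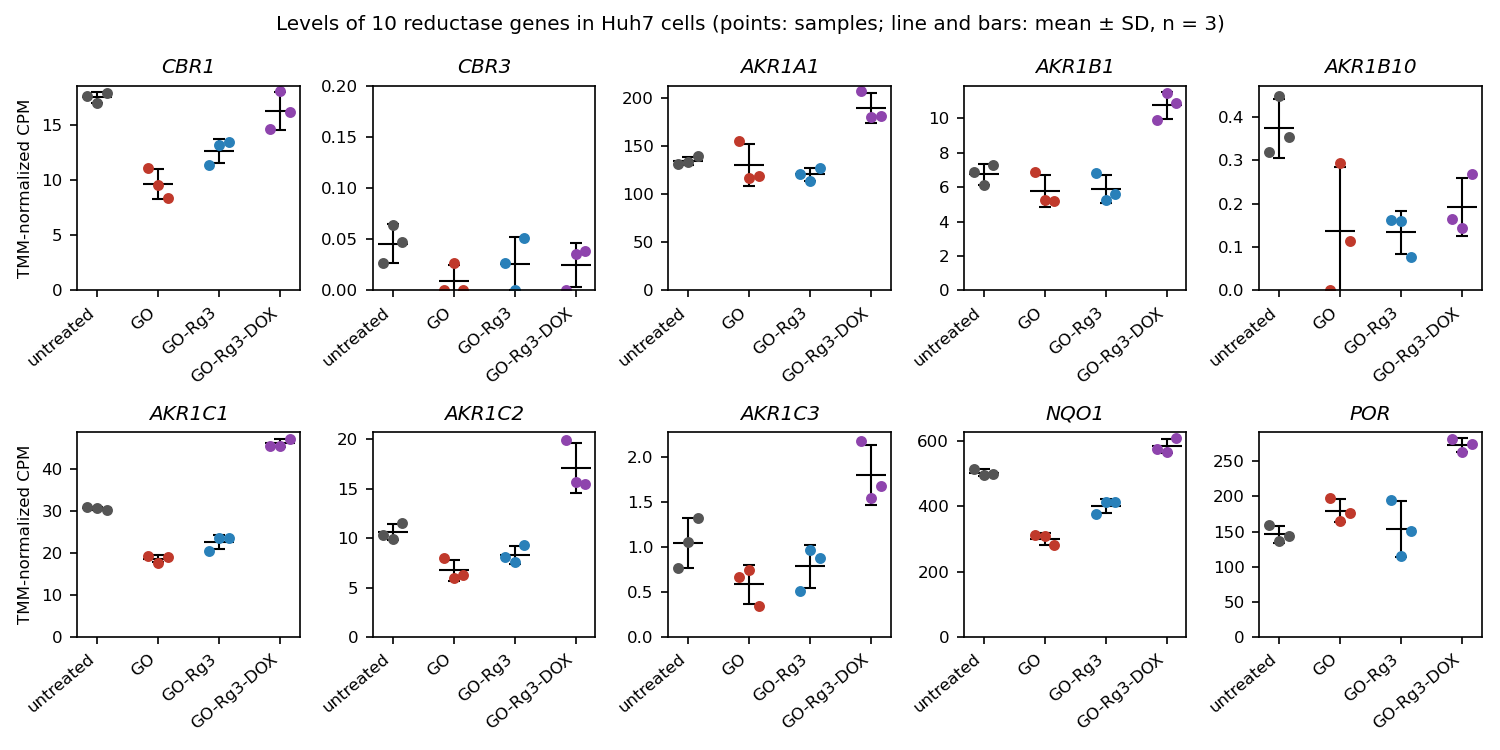
TMM-normalized CPM (vertical axis, from 0, a separate scale for each gene) of 10 reductase genes in the 12 samples, with points for samples, horizontal lines for group means and bars for SD (n = 3), cut off at 0. NQO1, AKR1C1, AKR1C2 and CBR1 were lowest after GO, and POR, AKR1A1, AKR1B1 and AKR1C1 to AKR1C3 were highest after GO–Rg3–DOX.

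Of the 10 genes, 9 passed the filter on low counts (10 or more counts in 3 or more samples) and were tested. CBR3 did not pass it. It had 1 to 2 counts in the untreated samples, 0 to 1 with GO, 0 to 2 with GO–Rg3 and 0 to 1 with GO–Rg3–DOX, all under the floor of 3 counts a library (0.0707 to 0.124 CPM). A difference in CBR3 was not detectable at this depth. AKR1B10 passed only through the untreated samples, which had 12, 14 and 15 counts, the group in which it was highest, so nothing is read from its differences. AKR1B10 counts were 0, 11 and 4 with GO, 6, 5 and 3 with GO–Rg3 and 4, 4 and 7 with GO–Rg3–DOX.

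After GO, 4 of the 9 genes tested were lower than in untreated cells at an adjusted p below 0.01 and none was higher, also at an unadjusted p under 0.05 or by DESeq2. The 4 were NQO1, CBR1, AKR1C1 and AKR1C2, each at 55.0% to 63.4% of its untreated mean. Of all 17092 genes tested, 15.4% were lower and 12.1% higher at this threshold (edgeR's quasi-likelihood test, Benjamini-Hochberg adjustment, as for every adjusted p given here). Without AKR1B10, the median log2 fold change of the other 8 genes was −0.69, against 0.01 over all genes, and 7 of these 8 were negative. No member also passed the study's second criterion, an absolute log2 fold change above 1, which 6.47% of all genes met.

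NQO1 was at 514, 495 and 499 CPM in the untreated samples and at 312, 307 and 280 CPM after GO. The groups did not overlap, and the GO samples lay close together although their mitochondrial shares differed. The log2 fold change was −0.75 ± 0.09 (SE, edgeR adjusted p = 1.9e-05).

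CBR1 was at 17.6, 16.9 and 17.9 CPM in untreated cells and at 11.04, 9.50 and 8.32 CPM after GO. Every GO sample was below every untreated one. CBR1 fell by 0.87 on the log2 scale (SE 0.13, edgeR adjusted p = 1e-04), to 55.0% of the untreated mean.

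AKR1C1 was at 31.1, 30.6 and 30.3 CPM in untreated cells and at 19.2, 17.7 and 19.0 CPM after GO, a log2 fold change of −0.72 ± 0.09 (SE, edgeR adjusted p = 3.9e-05). AKR1C2 was at 10.3, 9.94 and 11.5 CPM in untreated cells and at 7.99, 5.94 and 6.25 CPM after GO, a log2 fold change of −0.67 ± 0.15 (SE, edgeR adjusted p = 0.0022). Neither gene's groups overlapped. AKR1C3, which is much less abundant, was at 0.767, 1.05 and 1.32 CPM in untreated cells and at 0.666, 0.749 and 0.340 CPM after GO, and its log2 fold change of −0.85 ± 0.32 (SE) did not pass (edgeR adjusted p = 0.046). With the counts of the 3 genes summed, which removes any exchange of reads among them, the cluster fell by 0.71 on the log2 scale (edgeR adjusted p = 5e-05).

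The remaining tested genes did not pass after GO. AKR1A1 was at 131, 134 and 140 CPM in untreated cells and at 156, 117.5 and 118.99 CPM after GO, where replicate 1 was above and the others below the untreated samples. AKR1B1, the aldose reductase, was at 6.85, 6.11 and 7.28 CPM in untreated cells and at 6.85, 5.24 and 5.21 CPM after GO, with overlap. POR was at 160, 136 and 143 CPM in untreated cells and at 198, 165 and 176 CPM after GO, so that the single-electron donor was the one tested member with a positive estimate (log2 fold change 0.30, 95% interval −0.02 to 0.61, edgeR adjusted p = 0.12). With the GC offset the estimate of POR was 0.01 (edgeR adjusted p = 0.92).

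Without GO replicate 1 the same 4 genes passed, with log2 fold changes of −0.78 for NQO1, −0.97 for CBR1, −0.74 for AKR1C1 and −0.80 for AKR1C2. AKR1C2 no longer passed without untreated replicate 3 (edgeR adjusted p = 0.014), GO replicate 2 (0.012) or GO replicate 3 (0.013), nor after an offset for GC content (log2 fold change −0.40, edgeR adjusted p = 0.071). Fold changes rose with transcript GC content across genes (Spearman's rho 0.43 over 16622 genes, which share the same libraries), and NQO1 and the AKR1C genes, at 41.1% to 44.2% GC, were below the 47.8% median of tested genes. CBR1, at 52.1% GC, was above that median. The summed level of the 8 liver markers moved the same way, from 23529 to 23675 CPM in untreated cells to 14528 to 17668 CPM after GO. The summed level of 4 mesenchymal markers, nearly all of it VIM, went from 354 to 374 CPM in untreated cells to 473 to 819 CPM after GO. The part of GC content, of the mitochondrial share and of either marker list in these differences was not tested, and in bulk RNA fewer cells of a type and less RNA per cell cannot be told apart.

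**Figure D2:**
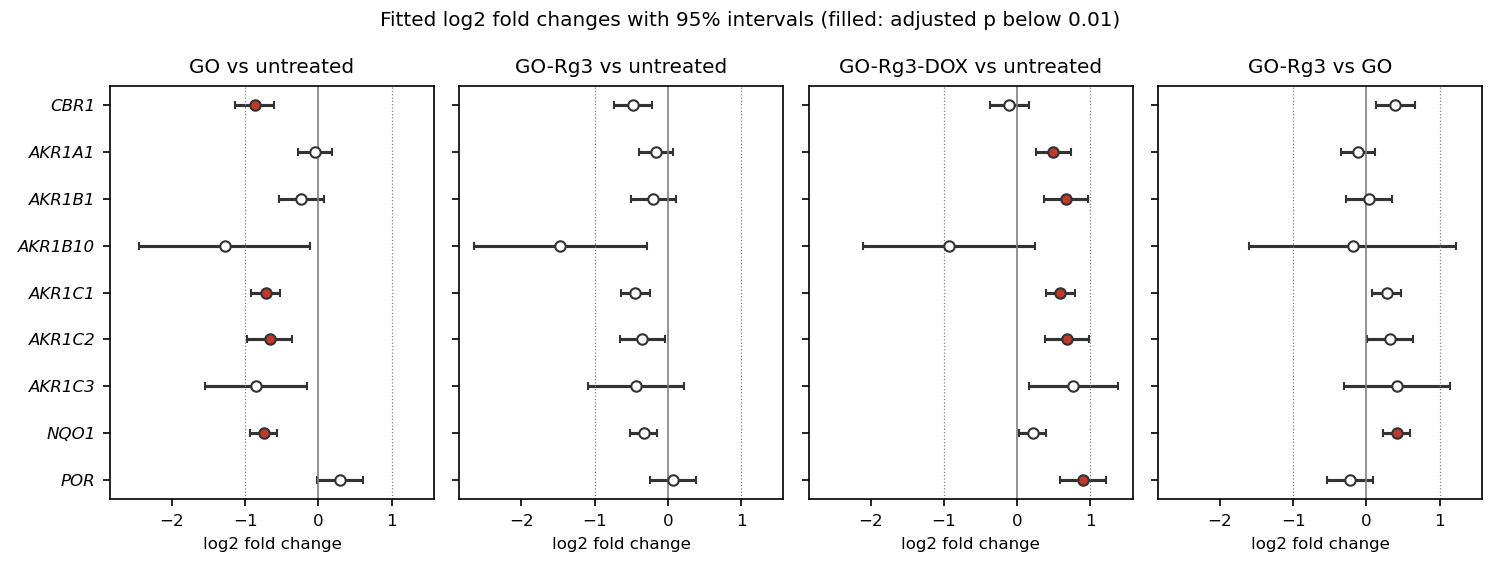
Fitted log2 fold changes (horizontal axis) of the 9 tested genes in the 4 comparisons, with 95% intervals as bars, filled points for an adjusted p below 0.01 and dotted lines at −1 and 1. Of the 9, 4 are filled to the left after GO, none after GO–Rg3, 5 to the right after GO–Rg3–DOX, and NQO1 for GO–Rg3 against GO.

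After GO–Rg3, at the same dose, none of the 9 genes differed from untreated cells at an adjusted p below 0.01 (edgeR), while NQO1, CBR1, AKR1C1 and AKR1C2 were lower at an unadjusted p under 0.05, as were 9.5% of all genes (13.4% in either direction). Few of all genes passed, 0.105% lower and 0.0585% higher, and 0.0585% met the study's rule. Without AKR1B10, 7 of the other 8 estimates were negative, with a median log2 fold change of −0.34 against 0.00 over all genes. The liver markers summed to 18122 to 21867 CPM in this group, also below their untreated range.

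NQO1 was at 375, 414 and 411 CPM after GO–Rg3, below every untreated sample (log2 fold change −0.33, 95% interval −0.51 to −0.15, edgeR adjusted p = 0.073). AKR1C1 was at 20.6, 23.5 and 23.6 CPM, also without overlap (log2 fold change −0.44, 95% interval −0.64 to −0.25, edgeR adjusted p = 0.027). CBR1 was at 11.3, 13.1 and 13.4 CPM (log2 fold change −0.47, 95% interval −0.74 to −0.21, edgeR adjusted p = 0.073). None of these intervals held 0, and a miss of the threshold does not show that the levels equalled those of untreated cells. By the Wald test of DESeq2, the tool of the study, AKR1C1 (adjusted p = 0.00019) and NQO1 (adjusted p = 0.0038) passed.

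AKR1C2 was at 8.06, 7.59 and 9.34 CPM and AKR1C3 at 0.514, 0.964 and 0.875 CPM after GO–Rg3. AKR1A1 was at 121, 114 and 126.98 CPM and AKR1B1 at 6.81, 5.24 and 5.58 CPM. For each of these 4 genes the adjusted p was between 0.29 and 0.61. POR was at 195, 115 and 151.4 CPM, the widest spread of any group of POR samples (SD 40.03 CPM), and its estimate changed sign without GO–Rg3 replicate 1 (log2 fold change 0.07 with it and −0.14 without it).

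The direct comparison of GO–Rg3 with GO asks whether the response differed between these materials at the same stated dose. In the paper, GO–Rg3 was made by heating GO and Rg3 with sulfuric acid. Its flakes were larger and thicker than those of GO, and their surface charge was less negative. The comparison therefore does not isolate Rg3, and the part of Rg3 itself in any difference was not tested. NQO1 was higher after GO–Rg3 than after GO, by 0.42 on the log2 scale (SE 0.09, edgeR adjusted p = 0.003), and at 133% of the GO mean. It was the only one of the 9 to pass, where 7.33% of all genes were higher, 6.25% lower and 2.77% met the study's rule. The 3 GO–Rg3 samples (375 to 414 CPM) were all above the 3 GO samples (280 to 312 CPM).

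CBR1 (log2 fold change 0.39, 95% interval 0.13 to 0.66, edgeR adjusted p = 0.031) and AKR1C1 (0.28, 95% interval 0.08 to 0.47, edgeR adjusted p = 0.036) also had groups that did not overlap, but missed the threshold. AKR1C2 had an estimate of 0.32 (edgeR adjusted p = 0.12), AKR1C3 of 0.42 (0.38), AKR1B1 of 0.04 (0.88), AKR1A1 of −0.11 (0.48), POR of −0.22 (0.27) and AKR1B10 of −0.19 (0.86), each with overlapping groups. The NQO1 call was lost without GO replicate 3, without GO–Rg3 replicate 3 and with only the 6 samples compared in the fit (log2 fold change 0.41, edgeR adjusted p = 0.038). Without GO replicate 1, both NQO1 (0.45, edgeR adjusted p = 0.0023) and CBR1 (0.50, edgeR adjusted p = 0.0097) passed. Across genes, fold changes in this comparison fell with GC content (Spearman's rho −0.43 over 16622 genes, which share the same libraries). With the GC offset AKR1C1 was at 0.13 (edgeR adjusted p = 0.24) and AKR1C2 at 0.14 (0.59). CBR1 was then at 0.54 (0.0016) and NQO1 at 0.34 (0.0036).

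After GO–Rg3–DOX, 5 of the 9 genes tested were higher than in untreated cells and none was lower at an adjusted p below 0.01 or at an unadjusted p under 0.05. They were POR, AKR1C2, AKR1B1, AKR1C1 and AKR1A1, at 141% to 187% of their untreated means. Of all genes, 25.5% were higher and 30.5% lower, and 30.8% met the study's rule, which no member did. Without AKR1B10, the other 8 genes had a median log2 fold change of 0.63, against −0.06 over all genes.

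POR was at 281, 263 and 275 CPM after GO–Rg3–DOX, against 136 to 160 CPM in untreated cells, and no other group held a sample above 198 CPM. Its log2 fold change, 0.90 ± 0.15 (SE, edgeR adjusted p = 6.6e-05), was the largest among the members that passed with TMM scaling. With the GC offset POR was at 0.55 (edgeR adjusted p = 2.5e-05), below AKR1C2 (1.14), AKR1C1 (0.99) and AKR1B1 (0.58). TMEM120A, which overlaps POR on the other strand, was at 42.3 ± 2.22 against 20.2 ± 0.998 CPM (SD, n = 3).

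AKR1A1, the aldehyde reductase, was at 208, 181 and 182 CPM after GO–Rg3–DOX, above all untreated samples (log2 fold change 0.49 ± 0.11, SE, edgeR adjusted p = 0.0011). AKR1B1 was at 9.93, 11.5 and 10.9 CPM, above all untreated samples too (log2 fold change 0.67 ± 0.14, SE, edgeR adjusted p = 0.00063). These 2 genes had not passed after GO alone.

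AKR1C1 was at 45.65, 45.6 and 47.3 CPM after GO–Rg3–DOX, against 30.3 to 31.1 CPM in untreated cells (log2 fold change 0.59 ± 0.09, SE, edgeR adjusted p = 3.5e-05). AKR1C2 was at 19.98, 15.7 and 15.5 CPM, against 9.94 to 11.5 CPM (log2 fold change 0.68 ± 0.14, SE, edgeR adjusted p = 0.00055). AKR1C3 was at 2.18, 1.55 and 1.68 CPM, and although no sample overlapped the untreated group it did not pass (log2 fold change 0.77 ± 0.29, SE, edgeR adjusted p = 0.027). The summed cluster rose by 0.62 on the log2 scale (edgeR adjusted p = 2.6e-05), from 42.3 ± 0.760 to 65.1 ± 2.53 CPM (SD, n = 3). AKR1C1 made up 74.3 ± 1.67% of the counts of AKR1C1 and AKR1C2 in untreated cells, 73.6 ± 2.57% with GO, 73.0 ± 2.22% with GO–Rg3 and 73.1 ± 3.08% with GO–Rg3–DOX (SD, n = 3), so that the ratio of the pair moved by less than its spread between samples while their sum went down and up.

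CBR1 and NQO1 did not pass in this comparison. CBR1 was at 14.6, 18.01 and 16.1 CPM after GO–Rg3–DOX, which overlapped the untreated samples (log2 fold change −0.11, 95% interval −0.37 to 0.16, edgeR adjusted p = 0.46). NQO1 was at 575, 567 and 609 CPM, above all untreated samples, but its log2 fold change of 0.22 (95% interval 0.03 to 0.40) missed the threshold (edgeR adjusted p = 0.038). NQO1 passed with RLE scaling (edgeR adjusted p = 0.0094), with DESeq2 (adjusted p = 0.00033) and after the GC offset (log2 fold change 0.51, edgeR adjusted p = 1.7e-05). All 10 genes together were at 652 ± 52.2 CPM with GO, 725 ± 26.9 CPM with GO–Rg3 and 1139 ± 31.6 CPM with GO–Rg3–DOX (SD, n = 3), and the share of NQO1 was 46.1%, 55.3% and 51.2%. The dose of GO–Rg3–DOX differed, so these levels stand side by side and were not tested, and the 3 comparisons with untreated cells share those samples.

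The rises after GO–Rg3–DOX depended on how the libraries were scaled. With library totals alone, all genes had a median log2 fold change of −0.47 in place of −0.06. POR was then at 0.48 (edgeR adjusted p = 0.0081), AKR1C1 at 0.18 (0.21), AKR1C2 at 0.26 (0.091), AKR1B1 at 0.26 (0.14) and AKR1A1 at 0.07 (0.52), so that POR alone still passed upward, while CBR1 was lower (−0.52, edgeR adjusted p = 0.005) and NQO1 changed sign (−0.20, edgeR adjusted p = 0.1). A change of scaling shifts all genes by about the same amount, so the position against the median of all genes hardly depends on it. By TMM, POR was above that median by 0.96, AKR1C2 by 0.74, AKR1B1 by 0.73, AKR1C1 by 0.65, AKR1A1 by 0.55 and NQO1 by 0.27, and the difference of CBR1 from it was −0.05. The GC offset does not shift all genes alike, and it changed these positions and their order. With it, AKR1C2 was above the median by 1.06, AKR1C1 by 0.91, AKR1B1 by 0.50, POR by 0.47, NQO1 by 0.43 and AKR1A1 by 0.17. CBR1 then differed from the median by −0.22.

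**Figure D3:**
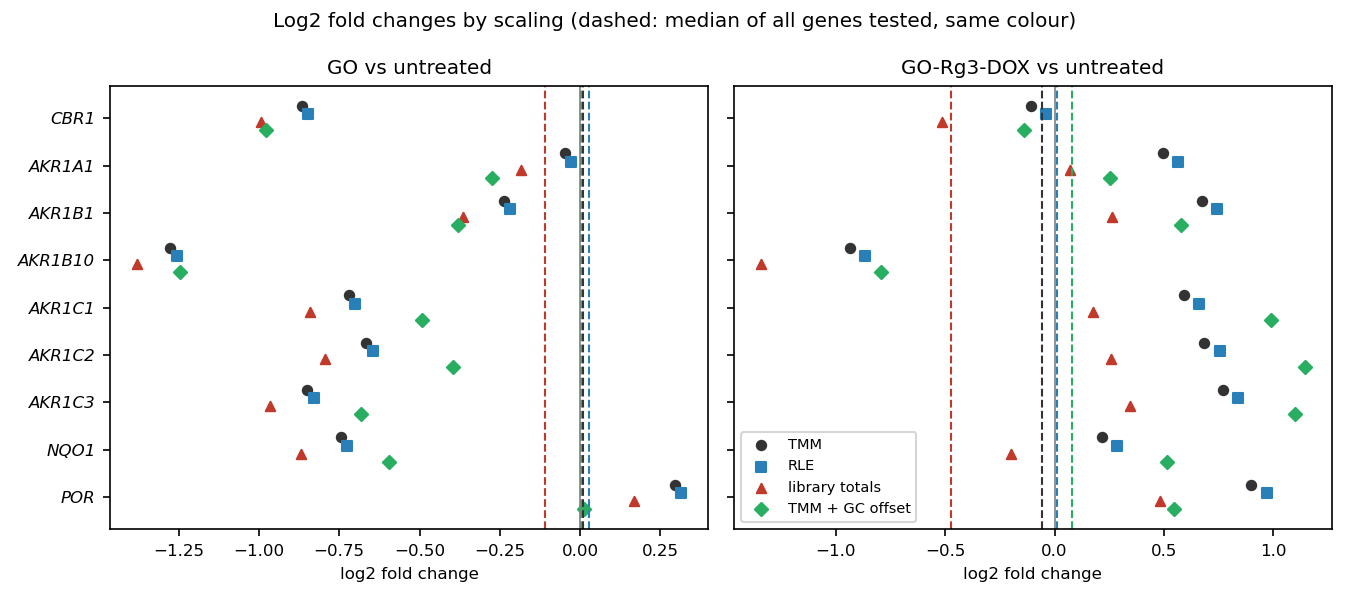
Log2 fold changes (horizontal axis) of the 9 tested genes after GO and after GO–Rg3–DOX under TMM scaling, RLE scaling, library totals and TMM scaling with a GC offset, with the median of all genes under each as a dashed line in its colour. In the GO–Rg3–DOX panel the library-total points and their median (−0.47) lie to the left of the TMM points together, and the GC offset moves NQO1 and the AKR1C genes to the right and POR and AKR1A1 to the left.

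The GC offset moved the members by their composition. AKR1A1 (56.7% GC) no longer passed after GO–Rg3–DOX (log2 fold change 0.25, edgeR adjusted p = 0.013), while AKR1C3 did (1.10, edgeR adjusted p = 0.0018). The liver markers summed to 31364 to 36780 CPM after GO–Rg3–DOX, above their untreated range, and the 6 genes of leukocytes, endothelium and fibroblasts to 6.79 to 7.75 CPM, against 2.83 to 3.47 CPM in untreated cells. This last sum was mostly the fibroblast genes COL1A2 and COL3A1, since none of the leukocyte and endothelial genes exceeded 0.536 CPM in any sample. The mesenchymal markers summed to 408 to 633 CPM, above their untreated range too. Whether these shifts have a part in the members' values was not tested.

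The other genes of the pathway were taken from fixed lists. Their counts are to be read beside the shares of all genes at the same threshold. These were 12.1% higher and 15.4% lower after GO, and 25.5% higher and 30.5% lower after GO–Rg3–DOX. They were 0.0585% higher and 0.105% lower after GO–Rg3, and 7.33% higher and 6.25% lower for GO–Rg3 against GO. Among other aldo-keto reductases, 3 of the 5 tested rose after GO–Rg3–DOX, and the median log2 fold change of the 5 was 1.15, against −0.06 over all genes. AKR7L (3.17, edgeR adjusted p = 1.3e-08) and AKR7A3 (2.15, edgeR adjusted p = 2e-04) rose most, and since the AKR7 genes are close paralogs, both are uncertain. Both were at a low level in untreated cells, AKR7L at 0.402 ± 0.133 CPM and AKR7A3 at 0.162 ± 0.0220 CPM (SD, n = 3). AKR7A3 was at 0.731 ± 0.277 CPM after GO–Rg3–DOX (SD, n = 3), and nothing is read from its rise. The count of 3 and the median of the 5 include AKR7A3, so neither is read as a result about this list. After GO, AKR7L rose by 1.07 (edgeR adjusted p = 0.0044), and AKR1D1, the bile acid and steroid 5β-reductase, fell by 0.72 on the log2 scale (edgeR adjusted p = 0.0025).

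Of 6 tested short-chain dehydrogenases with carbonyl reductase activity, 2 rose after GO–Rg3–DOX and none fell, where 25.5% of all genes rose and 30.5% fell. They were DCXR, which reduces dicarbonyls and L-xylulose (33.2 ± 1.60 to 88.3 ± 18.5 CPM, SD, n = 3, edgeR adjusted p = 1.2e-05), and the retinal reductase DHRS4 (9.01 ± 0.369 to 19.1 ± 3.40 CPM, SD, n = 3, edgeR adjusted p = 1.6e-05). After GO 1 of the 6 rose and none fell, and it was DHRS2 (log2 fold change 1.82, edgeR adjusted p = 0.00091), a mitochondrial and nuclear member of low level, which was lower with GO–Rg3 than with GO (−1.60, edgeR adjusted p = 0.0039). Of the 14 tested genes for other quinone and flavin reductases, 6 rose after GO–Rg3–DOX and 4 fell after GO, with none in the opposite direction. Cytochrome b5 reductase CYB5R3 (1.31, edgeR adjusted p = 4e-06) and, at a low level, the nitric oxide synthase NOS3 (1.45, edgeR adjusted p = 0.0061) rose most. NOS3 was at 0.222 ± 0.0916 CPM in untreated cells and at 0.598 ± 0.194 CPM after GO–Rg3–DOX (SD, n = 3). Nothing is read from the rise of NOS3, which the count of 6 includes. CRYZ, a quinone oxidoreductase (−1.06, edgeR adjusted p = 0.00036), and TXNRD1, the cytosolic thioredoxin reductase (−0.66, edgeR adjusted p = 0.0031), fell most after GO.

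The genes that supply NADPH, the cofactor of the carbonyl and aldo-keto reductases and of POR, gave 6 rises among 7 tested after GO–Rg3–DOX and 2 falls after GO. PGLS, the lactonase of the pentose phosphate pathway, rose from 23.8 ± 1.68 to 54.0 ± 6.03 CPM (SD, n = 3, edgeR adjusted p = 3.3e-05). With library totals alone the count after GO–Rg3–DOX was 3, and the quinone and flavin reductases gave 3 rises and 1 fall. After GO the malic enzyme ME1 (−0.91, edgeR adjusted p = 3.4e-05) and isocitrate dehydrogenase IDH1 (−0.70, edgeR adjusted p = 0.00035) fell, and both were higher after GO–Rg3 than after GO, by 0.81 (edgeR adjusted p = 0.00022) and 0.50 (edgeR adjusted p = 0.0072) on the log2 scale.

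**Figure D4:**
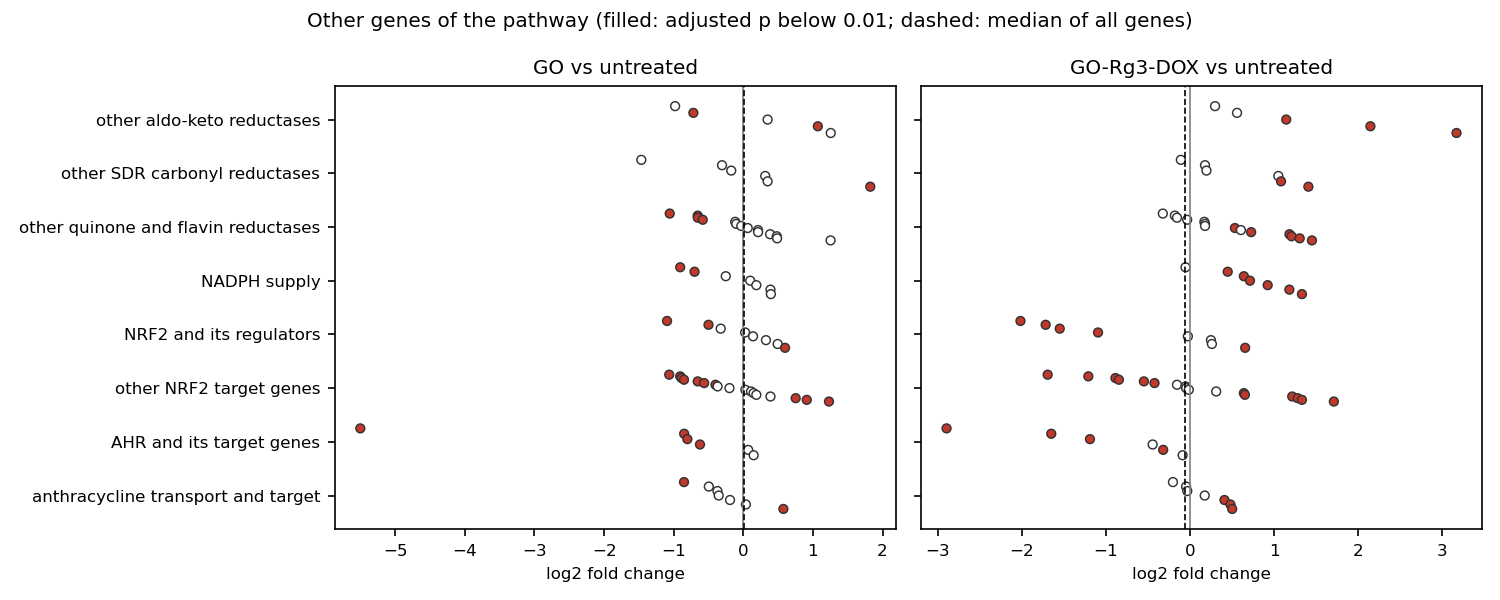
Log2 fold changes (horizontal axis) of the tested genes of 8 lists after GO and after GO–Rg3–DOX, with 1 point a gene, filled points for an adjusted p below 0.01, a solid line at 0 and a dashed line at the median of all genes. After GO–Rg3–DOX 6 of 7 genes for NADPH supply are filled on the right, while genes of NRF2 and its regulators reach −2.02 on the left.

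NRF2, the regulator of several members, is encoded by NFE2L2. Its transcript was at 252 ± 2.31 CPM in untreated cells, 117.8 ± 12.02 with GO, 198 ± 19.8 with GO–Rg3 and 76.5 ± 3.17 with GO–Rg3–DOX (SD, n = 3). It fell after GO (log2 fold change −1.10, edgeR adjusted p = 2.4e-06) and after GO–Rg3–DOX (−1.72, edgeR adjusted p = 2e-09). Of the 8 genes for NRF2 and its regulators, 2 fell and 1 rose after GO, and 4 fell and 1 rose after GO–Rg3–DOX, among them the NRF2 inhibitor KEAP1 (−2.02, edgeR adjusted p = 3.4e-09) and the small MAF partner MAFF, which rose (0.66, edgeR adjusted p = 0.00011). Other NRF2 target genes, a list that shares members such as TXNRD1, PGD, ME1 and ABCC2 with the other lists, went both ways. After GO 3 of 17 rose and 7 fell, and after GO–Rg3–DOX 6 rose and 6 fell, led by epoxide hydrolase EPHX1 (1.71, edgeR adjusted p = 1.9e-08) upward and OSGIN1 (−1.69, edgeR adjusted p = 2.2e-05) downward. Among all genes, 12.1% rose and 15.4% fell after GO, and 25.5% rose and 30.5% fell after GO–Rg3–DOX. The counts after GO–Rg3–DOX are near these shares and are not read as a result about these targets. With library totals alone, 3 of these targets rose and 7 fell after GO–Rg3–DOX, and of NRF2 and its regulators 4 fell and none rose.

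Of 6 tested genes for AHR and its targets, 4 fell after GO and 4 fell after GO–Rg3–DOX. CYP1A1, the classical AHR target, went from 202 ± 5.71 CPM in untreated cells to 4.49 ± 0.675 after GO and 88.5 ± 1.95 after GO–Rg3–DOX (SD, n = 3), and NQO1 stood in the same groups at 503 ± 10.03, 300 ± 17.4 and 584 ± 22.2 CPM (SD, n = 3). AHR itself fell from 106 ± 7.43 to 14.3 ± 1.89 CPM after GO–Rg3–DOX (SD, n = 3, edgeR adjusted p = 4.2e-09). After GO–Rg3, CYP1A1 (58.3 ± 0.560 CPM, SD, n = 3, edgeR adjusted p = 1.3e-07) was the only gene of the 8 lists that passed. Compared with GO, GO–Rg3 gave 2 higher and 0 lower genes among AHR and its targets, and the same counts for NADPH supply and for NRF2 and its regulators.

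Across the 12 samples the pattern of log2 CPM most like that of NQO1, among 13241 candidate genes, was that of STRAP (Pearson's r 0.996), CDK2AP1 (0.994) and TMEM230 (0.992). For AKR1C1 these genes were RWDD2B (0.989), AIG1 (0.984) and GC, the vitamin D-binding protein gene (0.983), and for AKR1C2 they were RANBP1 (0.985), CDK4 (0.983) and RAB5C (0.980). For CBR1 they were RPS3AP6 (0.983), a ribosomal protein pseudogene whose counts are uncertain, GABARAPL2 (0.982) and ATP5C1 (0.977). The points share 4 groups and their library scaling, and these values are a description only.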

How the data were processed

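Polyadenylated RNA libraries were made by the authors with a stranded kit, sequenced from both ends, put through the NGI-RNAseq pipeline (GRCh37) and counted with featureCounts. The annotation release, the strand setting and the handling of reads with several origins were not given in the sources used here. The values deposited by the authors are raw counts per gene without normalization. Samples were grouped by their treatment labels. Counts were fitted with edgeR 4.0.16 (TMM, quasi-likelihood, 12 samples in 1 model, 17092 genes) in R 4.3.3, and p-values were adjusted within each of 4 comparisons by the Benjamini-Hochberg procedure. In simulated counts for GO against untreated cells (17092 genes), the fit called 76 of 100 genes changed by 1 on the log2 scale, 92 of 100 changed by 2, and 2 unchanged genes. The simulated spread was set by a formula and not taken from these samples, and no shift by GC content or mitochondrial share was added. These rates therefore need not hold for the real samples. Levels are TMM-normalized CPM. Alternatives included DESeq2 1.42.0. Transcript lengths, GC content (97.3% of tested genes) and sequences came from GENCODE 44 lifted to GRCh37. All 10 members were named, and of the 8 lists at most the 2 largest rises and falls past the threshold in a comparison. CYP1A1 after GO–Rg3–DOX is an exception, named after its values were seen, and 1 item is not reported here. The members and lists were chosen with earlier results of these data known. Same-numbered samples had correlated deviations of −0.02 to 0.25 (mean 0.09, 18 pairs). Samples of different number had −0.26 to 0.21 (mean −0.05, 36 pairs). The ranges overlapped, and these values do not settle whether the numbers mark pairs. The labels do not name pairs, so the main fit did not use them, and a replicate block was an alternative. Reads are not independent molecules, and floors cover counting error only.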

Additional observations from a re-analysis of the deposited data

How the results depend on the processing

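The numbers of members past an adjusted p of 0.01 were 4 after GO, 0 after GO–Rg3, 5 after GO–Rg3–DOX and 1 for GO–Rg3 against GO. The count after GO–Rg3–DOX was 2 with library totals alone and 2 at a threshold of 1e-04. In that comparison NQO1 passed in addition with RLE scaling and with DESeq2, and both NQO1 and AKR1C3 passed with only the 6 samples compared. With the GC offset, with or without the replicate block, NQO1 and AKR1C3 passed after GO–Rg3–DOX and AKR1A1 did not. After GO, AKR1C2 did not pass with the GC offset, with or without the block. The count after GO–Rg3 was 2 with DESeq2 and 1 at a threshold of 0.05. For GO–Rg3 against GO it was 3 with DESeq2 and at 0.05, 2 with the GC offset, with or without the replicate block, and 0 at 1e-04 and with only the 6 samples compared. By the study's rule 2 members (AKR1C2 and AKR1C3) were called after GO–Rg3–DOX with the GC offset, with or without the block, and 0 otherwise. Leaving out 1 sample gave 3 to 4 members after GO, 5 after GO–Rg3–DOX, 0 after GO–Rg3 and 0 to 2 for GO–Rg3 against GO, and 0 to 1 by the study's rule after GO. That 1 was AKR1B10 without GO replicate 2 (log2 fold change −2.44, edgeR adjusted p = 0.0092), the gene with few counts. The replicate block alone left the counts at 4, 0, 5 and 1, although over all genes it moved the number past the threshold from 28 to 84 after GO–Rg3. That number was 331 with DESeq2, 156 with the GC offset, 246 with the offset and block, 91 with the 6 samples alone and 486 with no filter. For GO–Rg3 against GO it was 2321, and 482 with the 6 samples alone. Of the members' log2 fold changes under alternatives, 560 kept their direction and side of the threshold, 14 lost a call, 19 passed where the main value did not, and 15 changed sign. Of the 19, 2 are AKR1C3 given the value of the summed AKR1C row, which is no call for AKR1C3 itself. Except for NQO1 after GO–Rg3–DOX with library totals (−0.20), the latter were estimates near 0 or of few counts. Leaving out 1 sample put AKR1A1 after GO at −0.19 to 0.026 (above 0 without GO replicate 2, and 0.022 without GO replicate 3) and POR after GO–Rg3 at −0.14 (without GO–Rg3 replicate 1) to 0.24. For GO–Rg3 against GO it put AKR1A1 at −0.19 to 0.031 (without GO replicate 1), AKR1B1 at −0.081 (without GO–Rg3 replicate 1) to 0.17, with −0.027 without GO replicate 2 and −0.031 without GO replicate 3, and AKR1B10 at −0.64 to 0.97 (without GO replicate 2), with 0.10 without GO–Rg3 replicate 3. In that comparison AKR1A1 was at 0.050 with library totals, 0.12 with the GC offset and 0.12 with the offset and block, and POR at 0.012 with the GC offset and 0.0059 with the offset and block. The cause of these changes was not tested. Depth limited CBR3, AKR1B10 and AKR1C3.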

Other observations

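Genes for the transport and the target of anthracyclines formed a list outside the comparisons of reductases. ABCB1, the P-glycoprotein that exports DOX, was at 297 ± 2.60 CPM in untreated cells and at 394 ± 17.2 CPM after GO–Rg3–DOX (SD, n = 3, edgeR adjusted p = 0.0027). Of the 7 tested genes, 3 rose after GO–Rg3–DOX and none fell, and the 2 largest rises were in ABCC1, another exporter (log2 fold change 0.50, edgeR adjusted p = 0.00044), and TOP2B, a topoisomerase that anthracyclines poison (0.48, edgeR adjusted p = 0.0014). Among all genes, 25.5% rose and 30.5% fell in this comparison. The rises of the list rest on the scaling, since with library totals alone none of the 7 was higher and 2 were lower at the threshold. After GO, ABCC1 rose by 0.58 (edgeR adjusted p = 0.00043) and the exporter ABCC2 fell by 0.85 on the log2 scale (edgeR adjusted p = 2.9e-05). Both lay closer to untreated cells after GO–Rg3 than after GO, with a log2 difference between GO–Rg3 and GO of −0.45 for ABCC1 (edgeR adjusted p = 0.005) and of 0.76 for ABCC2 (edgeR adjusted p = 0.00016). ABCB1 was named after its values were seen.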
